A study of Mus musculus with 4 samples.

Results

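The cone phototransduction cascade was examined through the 10 genes named for it, out of 13452 Ensembl genes in a table of RNA isoforms of the mouse retina. The genes were taken by name, from the roles they are known for: the opsins Opn1sw and Opn1mw, the transducin subunits Gnat2, Gnb3 and Gngt2, the phosphodiesterase subunits Pde6c and Pde6h, the channel subunits Cnga3 and Cngb3, and the arrestin Arr3. Together they had 50 of the 44325 isoforms of the table.

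In a cone, light activates an opsin, which switches on the G protein transducin. Transducin relieves the inhibition of a phosphodiesterase that breaks down cyclic GMP, and channels held open by cyclic GMP then close. Arrestin binds the activated opsin and ends the signal, and rods run the same cascade with their own set of genes.

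Single cells were freed with papain from the retinas of male mice, wild-type and of the inbred strain C57BL6/J, and the cDNA of 4 libraries was sequenced as long nanopore reads, which can span a whole transcript. The libraries were 1 without enrichment at postnatal day 40, 1 without enrichment for which no age is given, 1 labelled CD73 enrichment at postnatal week 8 and 1 labelled CD90.2 enrichment at postnatal month 4. On the surface of retinal cells, CD73 marks photoreceptors and CD90.2 marks ganglion cells and other neurons. The protocol in the labels describes a magnetic separation that removed CD73-positive cells and one that retained CD90.2-positive cells, whereas the design text of the series names flow sorting.

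The values are those of the cone column of a table of counts by cell class. The column names no library, so cones are 1 pooled sample without replicates and no difference carries a test; the other 5 class columns were not used here. Intervals are exact 95% intervals, Poisson for a level and Clopper-Pearson for a share, and cover counting error only. The cone column held 7307134 counts, and levels are given as CPM, the counts scaled to a column total of 1000000. Some levels are also given per kilobase of the length of the isoform model. A long read can span a whole transcript, and whether counts rise with transcript length was not tested. A column sums over cells, so a low level cannot be divided into few cells with the RNA and little RNA per cell. A count of 0 allows up to 3 counts.

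Markers that are no members were checked first. The 4 cone markers outside the cascade all had counts in the cone column and summed to 158 CPM. Rxrg had 116 CPM, Ccdc136 27.1 CPM, Thrb 11.4 CPM and Slc24a2 3.70 CPM. Slc24a2 thus lay below the median of the genes with counts in cones, 4.24 CPM. Markers of other retinal cells were also present. The 6 bipolar markers summed to 714 CPM, of which Pcp2 gave 669 CPM, with Trpm1 at 0. The 6 Müller glia markers summed to 413 CPM, of which Apoe gave 350.1 CPM, with none at 0. The 6 amacrine markers summed to 3.56 CPM, with Gad2 and Tfap2a at 0, and the 6 ganglion markers to 43.4 CPM, with Pou4f1 and Pou4f2 at 0. The 5 rod markers summed to 22030 CPM, with none at 0, and 21831 CPM of that sum was Gngt1 alone. The part of RNA from other cells in the values below was not tested.

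The cascade made up 10.6% of all counts in the cone column, 775734 counts or 106161 CPM. The members spread over a wide range, from 13.8 CPM for Cnga3 to 62874 CPM for Pde6h. All 10 lay above 4.24 CPM, the median of the 10399 genes with counts in cones. By counts, which are not adjusted for length, Pde6h ranked 1, Opn1mw 3, Opn1sw 4 and Gnb3 18. Gngt2 and Gnat2 followed at 105 and 117, Arr3 at 426 and Pde6c at 907, and the channel subunits came last, Cngb3 at 2665 and Cnga3 at 3430. The catalytic and the inhibitory subunit of the phosphodiesterase thus stood far apart in the order.

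**Figure D1:**
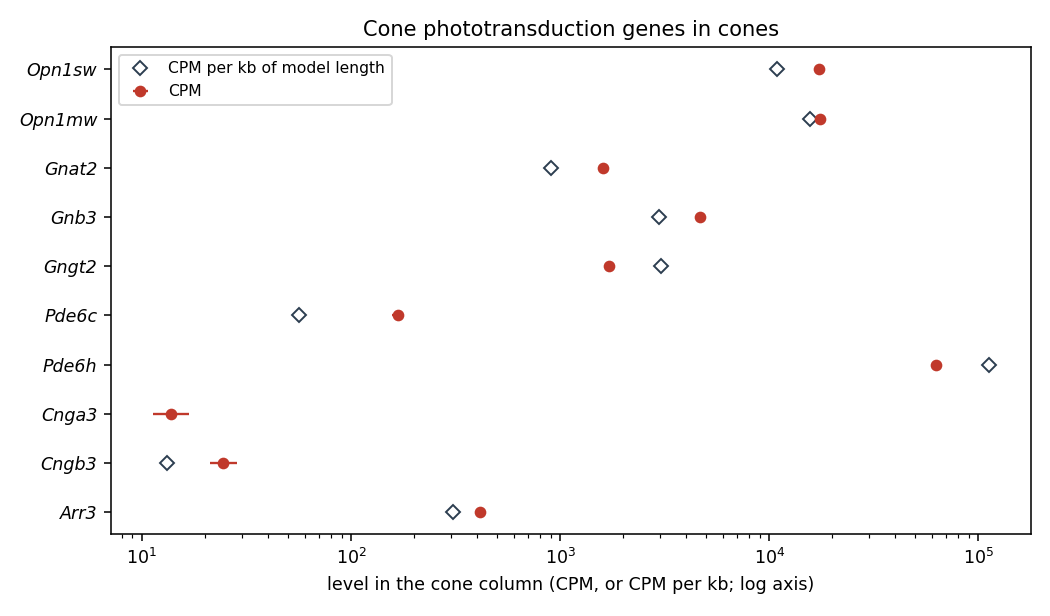
Level of each gene in the cone column on a log axis; filled points are CPM with exact 95% Poisson intervals, and open diamonds are CPM per kilobase of model length. Pde6h lies farthest right on both scales, at 62874 CPM and 112678 CPM per kilobase, and Cnga3, at 13.8 CPM, has no diamond because its isoforms have no model.

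The opsins detect the light, Opn1sw at short (ultraviolet) and Opn1mw at middle (green) wavelengths. Opn1sw (chr6:29376671-29388468, minus strand, GRCm38) had 17211 CPM in cones and Opn1mw (chrX:74127464-74150760, plus strand) 17490 CPM. The opsins were nearly level in counts, 125764 for Opn1sw and 127798 for Opn1mw, a ratio of 0.984 (0.976 to 0.992). The ratio turned with the isoforms that were summed: with annotated isoforms only it was 1.21, with the most abundant isoform of each gene 1.14, and per kilobase of model length, an alternative chosen after the data were seen, 0.697. Which opsin was the more abundant in cones thus depended on what was counted.

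Opn1sw had 4 isoforms, and they were the 4 combinations of 2 splicing choices. Exon 3 could end 24 nt further downstream, and exon 4 could end at an inner 5′ splice site that drops its last 189 nt. The annotated transcript Opn1sw-201, with neither change, had 100633 counts in cones (80.0%). The longer exon 3 alone had 13242 counts (10.5%), the shorter exon 4 alone 6613 counts (5.26%) and both together 5276 counts (4.20%). The sequence of exon 3 is shown because its added bases hold an in-frame stop codon. Capitals mark the 24 added bases, at chr6:29379299-29379322 (minus strand, GRCm38).
Opn1sw exon 3 with its extension: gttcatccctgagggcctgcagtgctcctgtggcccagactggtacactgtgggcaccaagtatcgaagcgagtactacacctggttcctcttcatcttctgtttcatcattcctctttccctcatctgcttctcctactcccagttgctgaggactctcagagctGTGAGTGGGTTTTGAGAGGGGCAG
The reading frame from the annotated start was 346 codons in Opn1sw-201. It closed after 231 codons with the longer exon 3, inside the added bases, and the stop lay 249 nt before the last splice junction, or 60 nt where exon 4 was also short. With the shorter exon 4 alone the frame lost 63 codons, to 283, and reached the annotated stop.

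The 2 choices were associated over the listed isoforms. Among cone counts with the longer exon 3, 28.5% (27.8 to 29.1%) had the shorter exon 4, against 6.17% (6.02 to 6.31%) of those without it, an odds ratio of 6.06. Isoforms that did not reach the deposited list are not in these shares.

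Opn1mw had 5 isoforms, of which only Opn1mw-201 was annotated. It had 88572 counts in cones (69.3%), an isoform without exon 4 had 19597 (15.3%), one without exons 4 and 5 had 10232 (8.01%), one without exon 5 had 6593 (5.16%), and one without exon 4 and with a shortened exon 5 had 2804 (2.19%). In all, exon 4 (166 nt, chrX:74139803-74139968) was absent from 25.5% of the cone counts (25.3 to 25.8%) and exon 5 (240 nt, chrX:74143446-74143685) from 13.2% (12.98 to 13.35%). Leaving out isoforms with the shortened exon 5, exon 5 was skipped in 34.3% (33.8 to 34.8%) of counts without exon 4 and in 6.93% (6.77 to 7.09%) of counts with it, an odds ratio of 7.01. In both opsins 1 choice was thus more frequent where the other was present.

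The loss of exon 4 shifts the frame. The annotated frame of 359 codons fell to 205 codons without exon 4, with the stop 185 nt before the last junction. It was 248 codons without both exons and 265 with the shortened exon 5, in each case with a stop in the last exon other than the annotated one. Without exon 5 alone, 80 codons were lost in frame, and 279 remained before the annotated stop.

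Each opsin had 1 exon that could be shortened, and by the same length. Exon 4 of Opn1sw and exon 5 of Opn1mw are both 240 nt long, and in each the inner 5′ splice site lies after 51 nt and removes 189 nt, or 63 codons. The exon of Opn1mw is shown to mark that position, with the retained bases in capitals and the removed bases in lower case, and the splice site itself at the change of case.
Opn1mw exon 5 (chrX:74143446-74143685, plus strand): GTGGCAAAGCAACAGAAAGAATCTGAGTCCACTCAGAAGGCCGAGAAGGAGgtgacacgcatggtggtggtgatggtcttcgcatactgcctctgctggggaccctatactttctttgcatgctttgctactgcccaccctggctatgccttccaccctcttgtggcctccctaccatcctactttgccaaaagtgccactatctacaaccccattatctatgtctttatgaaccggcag
The inner site was used in 9.45% (9.29 to 9.62%) of Opn1sw counts in cones and in 2.19% (2.11 to 2.28%) of Opn1mw counts. For Opn1mw it was listed only together with loss of exon 4.

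**Figure D2:**
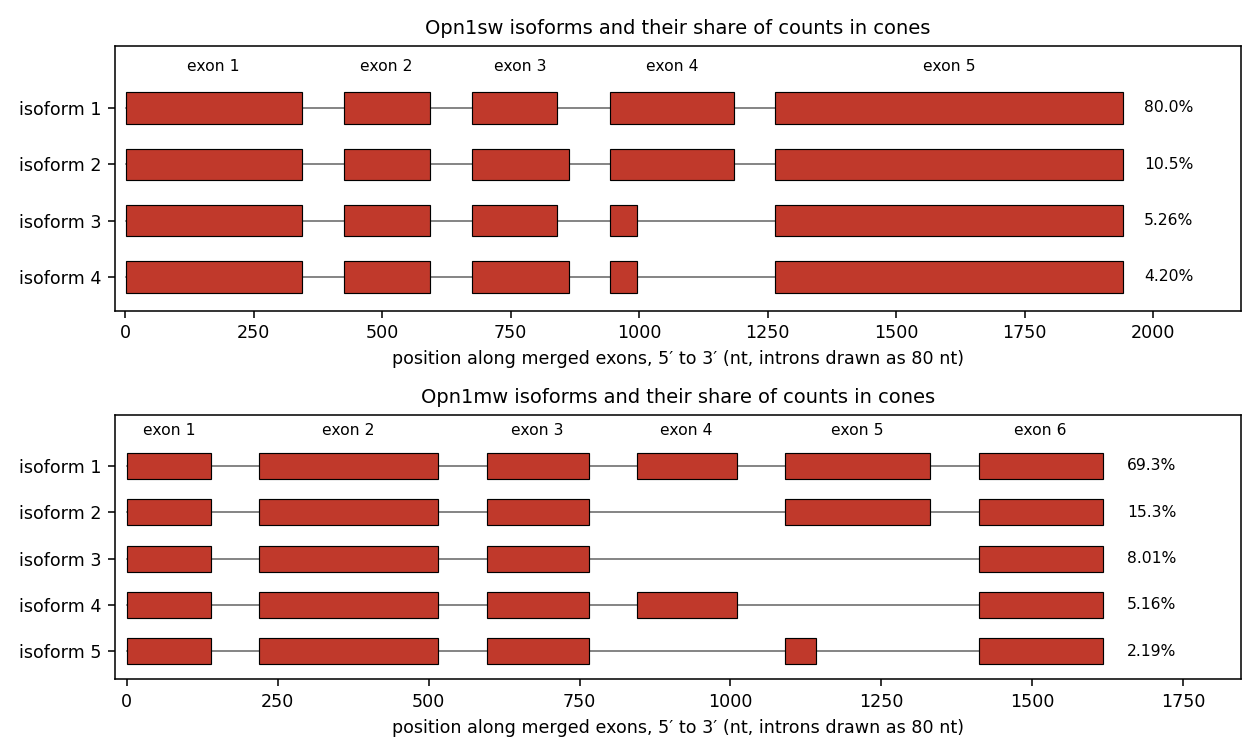
Exons of the listed isoforms of Opn1sw (upper) and Opn1mw (lower), 5′ to 3′, on merged exons drawn to scale in nt with each intron drawn as 80 nt; the figure beside each isoform is its share of the counts of the gene in cones. In Opn1sw the long exon 3 and the short exon 4 appear alone (10.5% and 5.26%) and together (4.20%), and in Opn1mw the short exon 5 appears once, without exon 4 (2.19%).

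Transducin couples the opsin to the phosphodiesterase. Gnat2 (alpha subunit, chr3:108092789-108101432, plus strand) had 1605 CPM in cones, Gnb3 (beta subunit, chr6:124834240-124840275, minus strand) 4654 CPM and Gngt2 (gamma subunit, chr11:95837216-95845734, plus strand) 1708 CPM. Per kilobase of model length the levels were 899 CPM for Gnat2, 2975 CPM for Gnb3 and 3045 CPM for Gngt2. The alpha subunit was thus the lowest of the 3 on both scales, while Gnb3 and Gngt2 changed order between them. Gnb3 is also known as the beta subunit of the G protein that serves the glutamate receptor of ON bipolar cells.

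Gnat2 had 5 isoforms. Its annotated isoform Gnat2-201 had 6910 of 11729 counts in cones (58.9%, 58.0 to 59.8%). An unannotated isoform of 9 exons had 20.2% (19.5 to 20.99%). It starts at the GENCODE start of Gnat2-201, 268 nt upstream of the deposited Gnat2-201 model, ends exon 1 at a 5′ splice site 20 nt earlier, and retains the annotated frame of 354 codons. Another first exon (56 nt, chr3:108094448-108094503), which lacks the annotated start codon, was used in 16.8% (16.1 to 17.4%) of the counts. The 5′ end of Gnat2 thus took 3 forms in cones.

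Exon 4 of Gnat2 could end 82 nt further downstream, which closes the frame after 138 codons where the annotated start is present. In cones 29.5% (27.5 to 31.6%) of the counts with the inner first exon had the longer exon 4, against 4.91% (4.49 to 5.35%) of the others.

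Gnb3 had 4 isoforms, and 2 of them carried nearly all counts. Gnb3-201 had 80.7% of the counts in cones. An annotated isoform that retains intron 2 (258 nt) had 18.9% (18.5 to 19.3%). The retained intron is shown because its capitals mark the stop codon that closes the frame after 70 of 340 codons, 961 nt before the last junction.
Gnb3 intron 2 (chr6:124839406-124839663, minus strand): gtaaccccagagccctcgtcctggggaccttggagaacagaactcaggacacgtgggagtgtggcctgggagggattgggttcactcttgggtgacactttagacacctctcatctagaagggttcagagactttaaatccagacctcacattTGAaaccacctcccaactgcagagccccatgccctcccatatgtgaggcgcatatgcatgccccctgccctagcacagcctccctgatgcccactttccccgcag
The other 2 isoforms begin outside the gene, at 5′ splice sites of the upstream neighbours P3h3 (16921 nt before the start of Gnb3, 112 counts in cones) and Cd4 (29970 nt before it, 5 counts), and both retain the full frame of 340 codons.

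Gngt2 had 5 isoforms that differed at 3 first exons and at the start of exon 3, with the same frame of 69 codons in all 5. The most abundant in cones, with 4934 of 12483 counts (39.5%), was the unannotated one. By first exon, cones used the middle one in 62.0% (61.1 to 62.9%) of the counts, the distal one in 37.0% (36.1 to 37.8%) and the proximal one in 1.00% (0.834 to 1.19%). The choice of a 3′ splice site 19 nt further upstream at exon 3 was at 34.7% in cones. Abi3 lies across Gngt2 on the opposite strand in GENCODE, and how strand was used in counting is not given in the sources used here.

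The phosphodiesterase breaks down cyclic GMP, and its subunits Pde6c, the catalytic one, and Pde6h, the inhibitory one, had 1 isoform each, as 31.9% of genes did. Pde6h (chr6:136923832-136968865, plus strand) had 62874 CPM in cones (62693 to 63056). Its 459431 counts were more than those of the other 9 genes together in cones, and per kilobase of model length, at 112678 CPM, it was also above Opn1mw (15621) and Opn1sw (10889). The model has the introns of the annotated Pde6h-202 but ends 5382 nt before it, at a length of 558 nt against 5940 nt, with the full frame of 83 codons. Pde6c (chr19:38132781-38183958, plus strand) had 167 CPM in cones (158 to 177), and 56.2 CPM per kilobase. Its isoform, of 22 exons and 2970 nt, holds the full frame of 861 codons.

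The channel of Cnga3 and Cngb3 carries the current that light shuts off, and both genes were the lowest of the members. Cnga3 (chr1:37214434-37263384, plus strand) had 101 counts in cones (13.8 CPM, 11.3 to 16.8). Of its cone counts, 80 belonged to the annotated Cnga3-201 and 21 to an unannotated isoform, and neither had a model. Cngb3 (chr4:19280850-19510623, plus strand) had 179 counts in cones (24.5 CPM, 21.04 to 28.4). The intervals of the channel subunits do not meet, with Cngb3 above Cnga3 in CPM, and no level per length was had for Cnga3.

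Cngb3 had 11 listed isoforms, 10 of them with counts in cones, and none was annotated, although GENCODE M21 holds 1 transcript, Cngb3-201, of 18 exons. No modelled isoform had its full frame of 694 codons. Of 157 cone counts in the 7 modelled isoforms, 54.1% (46.0 to 62.1%) skipped exon 11, 39.5% (31.8 to 47.6%) skipped exon 3, 37.6% skipped exon 4 and 29.3% skipped exons 5 and 6. Models that end before an exon or start after it are not counted as skipping it, so more counts lack exon 11 than skip it. Several models end early, in last exons other than that of Cngb3-201. In 5′ to 3′ order these exons took 29.3%, 40.1%, 8.28% and 15.9% of the counts in cones. Apart from an isoform with 10 counts, all modelled isoforms ended in such an exon. The first of these last exons lies downstream of exon 6, with a further exon between them.

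Arr3, the cone arrestin (chrX:100605497-100618493, plus strand), had 413 CPM in cones (399 to 428). Its 3020 cone counts were spread over 12 isoforms, none annotated, and the most abundant one had 533 (17.6%, 16.3 to 19.1%). Members with no annotated isoform were thus 2 of 10, Arr3 and Cngb3, against 20.0% of all genes. The most abundant Arr3 isoform differs from the annotated Arr3-201 by 3 bases, CAG, added at the start of exon 6 by a 3′ splice site 3 nt upstream, for a frame of 382 codons against 381. That site was used in 52.4% (50.6 to 54.2%) of the counts in cones.

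Exon 16 of Arr3 is 10 nt long and was absent from 33.2% (31.5 to 34.9%) of the counts in cones. It is shown with its neighbours, in capitals, because its length is not a multiple of 3 and its loss changes the frame.
Arr3 exons 15 to 17 joined, to the stop codon (chrX:100617425-100618387, plus strand, introns left out): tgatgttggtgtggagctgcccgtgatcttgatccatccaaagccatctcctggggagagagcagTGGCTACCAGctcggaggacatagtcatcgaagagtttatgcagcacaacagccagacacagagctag
Where exon 16 alone was skipped, the frame ended after 363 codons, with a stop in the last exon other than the annotated one. The same stop closed the frame after 364 codons where the 3 bases of exon 6 were also added and after 401 where exon 11 was also longer. The isoform that also skips exon 3 closed after 33 codons, 945 nt before the last junction. The longer exon 4 (103 nt added) was found in 17.5% (16.2 to 18.95%) of the cone counts and closed the frame after 34 codons. Exon 4 was skipped in 11.2% of the cone counts, and there the frame closed after 23 codons, 955 nt before the last junction. Exon 11 began 114 nt upstream in 15.6% of the cone counts, which added 38 codons in frame. In all, 38.1% (36.3 to 39.8%) of Arr3 counts in cones ran from the annotated start to the annotated stop.

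**Figure D3:**
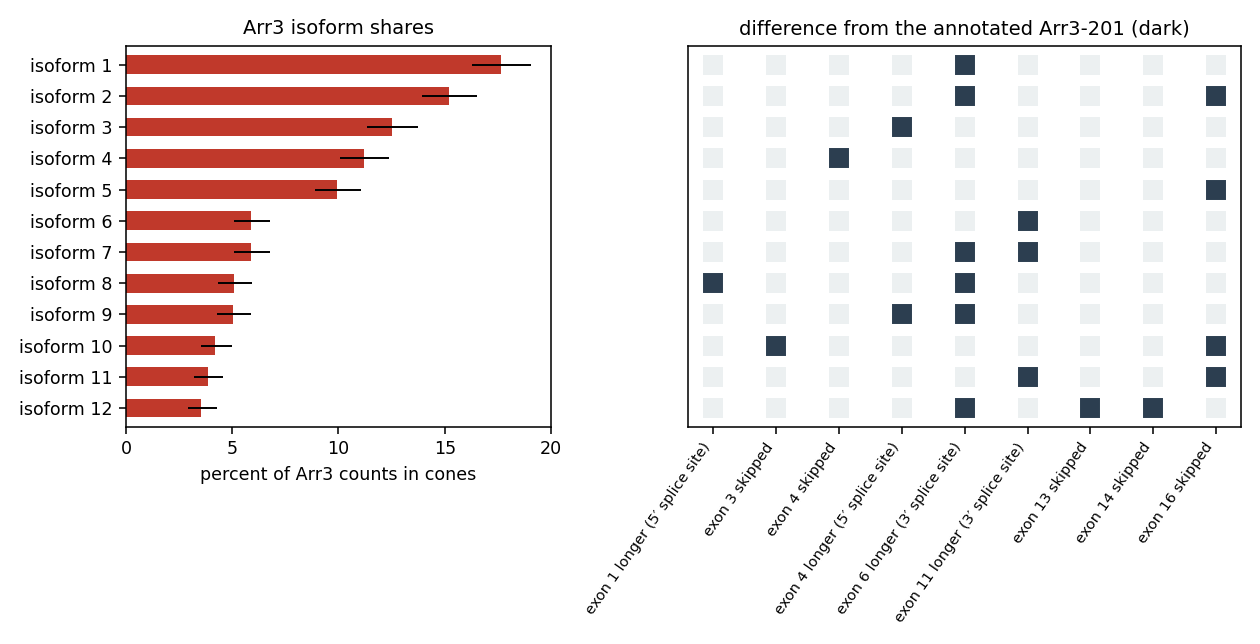
Left, share of each of the 12 Arr3 isoforms in the 3020 counts of cones, with exact 95% intervals; right, the differences of each isoform from the annotated Arr3-201, marked dark. The top isoform (17.6%) differs only by the longer exon 6, and 4 of the 12 lack exon 16.

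Over all members, 37 of the 50 listed isoforms were unannotated, against 63.5% of all isoforms in the table. The unannotated isoforms carried 9.13% (9.07 to 9.20%) of the members' counts in cones, against 6.09% for all isoforms in that column. By gene the share in cones was 0 for Pde6c and Pde6h, 0.344% for Gnb3, 14.7% for Opn1sw, 20.8% for Cnga3, 30.7% for Opn1mw, 39.5% for Gngt2, 41.1% for Gnat2 and 100% for Arr3 and Cngb3. Pde6h set much of the pooled value, which was 22.4% without it, an alternative chosen after the data were seen. Of 113 distinct splice junctions in the 44 modelled isoforms, 99 were in GENCODE. Of 32 unannotated modelled isoforms, 13 recombined annotated junctions, 16 joined annotated sites in a new junction, 1 was part of an annotated chain and 2 used a site outside the annotation of the gene.

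The share of cone counts that ran from the annotated start to the annotated stop at the annotated length differed widely by gene. It was 100% for Gngt2, Pde6c and Pde6h, 81.1% for Gnb3, 80.0% for Opn1sw, 79.2% for Gnat2 and 69.3% for Opn1mw. It was 0 of 3020 counts for Arr3 and 0 of 157 for Cngb3, and Cnga3 had no model. The annotated length is that of the reference transcript alone. For Arr3, 38.1% of the counts reached the annotated stop at another length, 382 codons against 381 in the most abundant isoform. No modelled Cngb3 isoform reached the annotated stop. The most abundant modelled isoform of each gene was compared with its others, 35 in all. Of these, 16 differed by a skipped exon, 10 by another 5′ splice site and 9 by another 3′ splice site. In 8 the first exon differed, in 4 the last exon, and 1 had a retained intron. The skipped exon could be missing from either isoform of the pair, and the most abundant Cngb3 isoform itself skips exons 3 and 11. An isoform could show more than 1 kind.

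**Figure D4:**
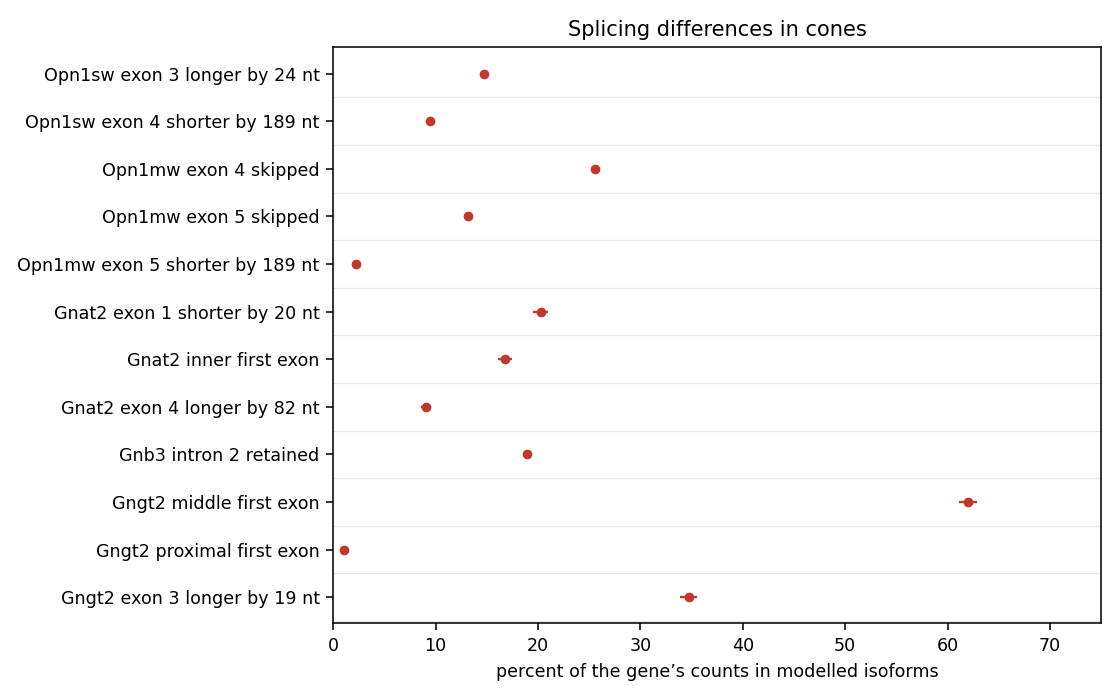
Share of cone counts with selected splicing differences from the reference transcript of the gene for the opsins and the transducin subunits, as a percent of the counts in modelled isoforms; bars are exact 95% intervals. Among those plotted, the middle first exon of Gngt2 lies highest, at 62.0%, and its proximal first exon lowest, at 1.00%.

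Rods run the cascade with counterparts of these genes, and 9 such genes were looked up in the same cone column. They summed to 42431 CPM there, against 106161 CPM for the members, and none was at 0. The sums are of unlike sets: the 9 include no opsin, whereas the members include Opn1sw at 17211 CPM and Opn1mw at 17490 CPM. Per kilobase of model length, 3 of them were high: Gngt1 at 50419 CPM against 3045 CPM for its cone counterpart Gngt2, Sag, the rod arrestin, at 3519 CPM against 308 CPM for Arr3, and Pde6g at 16841 CPM against 112678 CPM for Pde6h. The other 6 were low. Gnat1 had 40.6 CPM per kilobase against 899 CPM for Gnat2, and Gnb1 73.02 CPM against 2975 CPM for Gnb3. Pde6a and Pde6b had 5.13 CPM and 4.89 CPM per kilobase against 56.2 CPM for Pde6c. Cngb1, at 38.5 CPM per kilobase, was above the 13.2 CPM of Cngb3. In counts, Cnga1 had 38 and Cnga3 101. Per kilobase, the cone member was thus the lower one for the gamma subunit, the arrestin and the channel beta subunit. How much rod RNA the cone column holds was not tested, and the rod markers other than Gngt1 ran from 8.62 to 90.6 CPM there.

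Of 11 other genes listed for photoreceptor signalling, 10 were in the table. The 10, with Slc24a2, which is also on the list of cone markers, summed to 32639 CPM in cones. Guca1a, a calcium-dependent activator of guanylate cyclase, had 15151 CPM, recoverin (Rcvrn) 10014 CPM and phosducin (Pdc), which binds the beta and gamma subunits of transducin, 6868 CPM. These 3 carried most of the sum. The opsin kinase gene Grk1 had 21.6 CPM, Rgs9, which speeds the shut-off of transducin, 20 counts, and the guanylate cyclases Gucy2e and Gucy2f 1 count each.

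Promoter sequences from RefSeq (GRCm38) were found for 6 of the 10 members, with 7 start sites. The letters TAATC, the core of the motif bound by photoreceptor homeodomain factors such as CRX, were searched on both strands in the 250 bases before each start. They were in 3 of 7 windows, those of Opn1sw, Gnat2 and Arr3, against 19.8% of 32851 promoters. Arr3 had 3 copies, as 0.554% of all promoters had at least. Its window is shown with the copies in capitals.
Arr3 upstream window (chrX:100605247-100605496, plus strand): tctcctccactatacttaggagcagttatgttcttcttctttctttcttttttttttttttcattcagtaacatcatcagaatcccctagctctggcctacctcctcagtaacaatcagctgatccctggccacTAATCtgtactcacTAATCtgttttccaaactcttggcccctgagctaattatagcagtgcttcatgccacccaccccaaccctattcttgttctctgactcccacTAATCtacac
A match of letters is a description of the window and not of binding.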

How the data were processed

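Counts per isoform in cones were used as the authors deposited them, as whole numbers with no normalization, from 1 of the class columns of a table; the other 5 columns were left unused, so the comparisons planned between cell classes were not made. The genome build is mm10 (GRCm38), per the submitters' processing notes, and the isoform models name FLAIR, which assembles isoforms from long reads, per the file contents. Whether reads were collapsed to molecules, which libraries entered the column, how cells were typed, how doublets were treated and how isoforms were filtered are not given in the sources used here.

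Counts were summed per gene, scaled to CPM and given with exact intervals at the 95% level. Isoforms with an Ensembl identifier were called annotated. Models were compared with GENCODE M21 (mouse GRCm38), with the most abundant annotated isoform as the reference, or the transcript with the longest coding sequence where none was listed, and reading frames were taken from the annotated start. The Opn1sw models begin 2 nt inside the start codon and were extended to it. All members were named, together with the listed rod, pathway and marker genes; the rule for genes most alike over cell classes was not applied. Members and lists were chosen with earlier results of these data known. Some items are not reported here. Software was Python 3.11.15, pandas 2.3.3 and scipy 1.17.1.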

Additional observations from a re-analysis of the deposited data

How the results depend on the processing

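No paired analysis was possible because counts were pooled by cell class with no replicate numbers, and for the same reason no library could be left out. The alternatives planned for comparisons between cell classes (column scaling, equal depth, share and switch thresholds) were not run, since only the cone column was used. The opsin ratio of 0.984 reversed to 1.21 with annotated isoforms and to 1.14 with the most abundant isoforms, and moved to 0.697 per kilobase. The unannotated share of 9.13% was 74.0% as a share of isoforms and 22.4% without Pde6h. Member isoforms with counts in cones numbered 49, and 36 with at least 100 counts. The 49 were 98.0% of the member isoforms, against 51.3% of all isoforms in the table. The share of all isoforms with at least 100 counts was not computed. Of 40 alternative values, 35 stayed within the counting interval or within 1.5 times the count, 3 moved and 2, both of the opsin ratio, reversed the order. Among the 35, 20 were shares of the most abundant isoform of a single member. Several of the 35 could not change, since no modelled isoforms shared all their introns and no model had a single exon. The 35 are thus no measure of how stable the results are. Depth limits Cnga3 and Cngb3.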
